A study of Mus musculus with 10 samples.

Results

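This comparison sets the 3 libraries labelled NIC-Prmt1 against the 3 labelled NIC-Carm1, 6 of the 10 libraries of the series, and was read across 15694 of the 16290 genes of the deposited table, those that reached 10 normalised reads in 2 or more libraries. The series is RNA sequencing of mammary epithelial cells from FVB mice and asks what overexpressing single protein arginine methyltransferases does in mammary tumour formation. Cells were freed by enzymes from the number 3 and number 4 glands and enriched by short spins, and polyadenylated RNA was sequenced. All groups carry the genotype NIC, which the labels do not spell out: NIC-Prmt1 and NIC-Carm1 are NIC with a transgene for PRMT1 or CARM1, and the libraries labelled NIC (2) and NIC-Prmt6 (2) entered the fit only to estimate the spread. The promoter that drives each transgene, the age of the animals, whether glands held tumours and how many animals went into a library were not stated in the descriptions used, and no label says that libraries come from separate animals. The p-values below then measure only the spread between these libraries, which may be technical.

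PRMT1 and CARM1 (also called PRMT4) both add asymmetric dimethyl marks to arginines, on different residues of histones and on largely different proteins. PRMT1 makes most of this mark in mammalian cells and methylates many RNA-binding proteins, while CARM1 is known as a coactivator of nuclear receptors, the oestrogen receptor among them, and methylates chromatin remodelling and splicing proteins. The mammary epithelium they act in has an inner luminal layer, with hormone-sensing and milk-producing lineages, and an outer basal layer of contractile myoepithelial cells.

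The genes the groups are named for did not separate them. Values are normalised read counts, reads divided by a size factor of the library. Differences are NIC-Prmt1 minus NIC-Carm1 on a log2 scale, ± standard error. A gene that rose or fell was higher or lower in NIC-Prmt1 than in NIC-Carm1, which says nothing of its level in NIC. Prmt1 (chromosome 7, 44975989 to 44986568, minus strand, GRCm38) had normalised read counts of 2963, 2702 and 3258 in NIC-Prmt1 replicates 1 to 3 and 2916, 2362 and 2516 in NIC-Carm1 replicates 1 to 3, a log2 fold change of 0.20 ± 0.11 (limma adjusted p = 0.192). Carm1 (chromosome 9, 21546894 to 21592623, plus strand) stood at 2303, 2025 and 2136 against 2479, 2324 and 2146, with a log2 difference of -0.10 ± 0.08 (adjusted p = 0.379). The values of both genes overlapped between the groups, so these genes give no check of the labels, and the group names below stand for libraries carrying that label. The sources used here do not say where reads of a transgene would be counted. Over all genes tested, 14.9% were called higher in NIC-Prmt1 and 11.8% lower, against which the counts of each list are to be read. Among 13 methyltransferase and partner genes, none rose and 3 fell: Prmt8 at -2.70 from values of at most 27.2, Prmt10 at -0.53 ± 0.12 and Wdr77, the partner of PRMT5, at -0.28 ± 0.09. Each call was repeated in 22 alternative fits, with other tools, rescalings and filters and with libraries left out or averaged. None of these 3 calls held when the near-identical libraries described next were averaged, 1 was left without NIC-Prmt1 replicate 1 or 3, and none without NIC-Carm1 replicate 3. Of 18 known methylation substrates and coactivator partners, 1 rose and 1 fell (median 0.02; 0 and 1 on averaging), a smaller share in each direction than over all genes. The gene that fell was Smarcc1 (a subunit of the BAF remodelling complex and a CARM1 substrate), at -0.39 ± 0.08, and its call held in every alternative.

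The 6 libraries held between 22787789 and 29225498 reads, recovered as whole numbers from the normalised values. NIC-Carm1 replicates 2 and 3 were nearly identical, as were the NIC-Prmt6 libraries. Comparing reads gene by gene, the chi-square per degree of freedom was 2.7 and 2.44 in these pairs, where 1 would be counting noise alone, and 28.3 to 106 in every other pair within a group. These pairs still differed by more than counting noise, which does not show that their libraries are independent. Each library entered the main fit on its own. Whether a pair shares 1 source was not tested, and if so, that fit understates the spread. Counts are also given with each such pair averaged to 1 library, which leaves NIC-Carm1 at n = 2 and NIC-Prmt6 at n = 1. NIC-Prmt1 replicate 2 was about as near to NIC-Carm1 replicate 3 (58.8) as to NIC-Prmt1 replicate 1 (58.5), and nearer to NIC-Prmt1 replicate 3 (28.3). The luminal epithelial markers summed to between 6147 and 9474 CPM (recovered reads of the list per 1000000 reads of the library), and their defining genes Epcam, Krt8 and Cdh1 were abundant in all of them. Markers of fibroblasts (3784 to 7456) and endothelium (1796 to 5058) were also present throughout. RNA of whole cell preparations cannot tell fewer cells of a type from less RNA per cell, which holds for every result below.

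In all, 4199 genes differed at an adjusted p under 0.05: 2340 were higher in NIC-Prmt1 (14.9% of the genes tested) and 1859 were lower (11.8%). Of these, 781 were at least 2-fold higher and 472 at least 2-fold lower. With the near-identical libraries averaged, 990 genes were higher (6.31%) and 365 lower (2.33%), all of them among the 4199, so that the share of higher genes among those called went from 55.7% to 73.1%. Without regard to the test, all 3 NIC-Prmt1 libraries lay above all 3 NIC-Carm1 libraries for 22.0% of genes and below them for 21.0%, and 4101 of the 4199 called genes were of this kind. Leaving out NIC-Prmt1 replicate 1 lowered the count to 2664, leaving out NIC-Carm1 replicate 2 to 2693 and NIC-Carm1 replicate 3 to 2626. No called gene changed direction in any of the 22 alternatives. The median log2 fold change over all genes was -0.004.

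**Figure D1:**
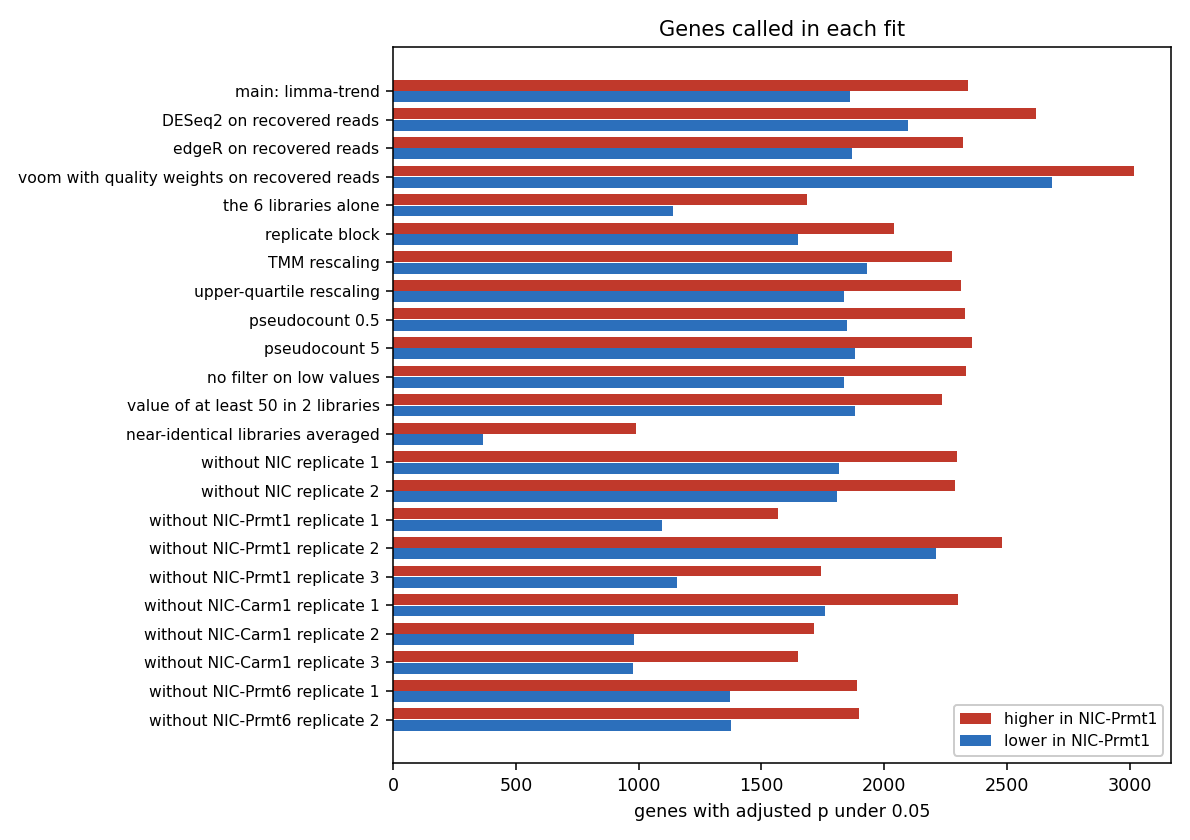
Number of genes called higher (red) or lower (blue) in NIC-Prmt1 than in NIC-Carm1 at an adjusted p under 0.05, for the limma-trend fit and each alternative (horizontal axis: genes). The counts are lowest with the near-identical libraries averaged (990 and 365) and highest with voom (3018 and 2682).

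Stc2 and Lpin1 were among the 6 genes with the smallest p-values in their direction. Stc2, which encodes the secreted glycoprotein stanniocalcin 2 (chromosome 11, 31357307 to 31370074, minus strand), had normalised read counts of 14039.5, 11319 and 12521 in NIC-Prmt1 and 3747, 3136 and 3333 in NIC-Carm1, a difference of 1.89 ± 0.11 on the log2 scale (adjusted p = 5.08e-05). Lpin1, the gene of the lipid phosphatase lipin 1 (chromosome 12, 16535669 to 16610966, minus strand), stood at 1283, 1394 and 1377 against 4184, 3431 and 3487 and fell, at -1.45 ± 0.09 (adjusted p = 0.000129). In both genes the lowest library of the higher group was more than 2-fold above the highest library of the lower group, and both calls held in every alternative. The same 6 in each direction also held the transcriptional regulator Cited2 (-1.50 ± 0.13), the forkhead factor Foxi1 (-1.08 ± 0.10) and the mucin-type glycosyltransferase Galnt7 (-1.03 ± 0.10), all lower in NIC-Prmt1, and the actin-binding calponin Cnn3 (0.97 ± 0.08) and the keratin Krt7 (1.10 ± 0.09), both higher. Each of these 5 passed in every alternative.

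The 12 largest rises named included the neuronal adhesion genes Dscam and Nrxn3. Dscam, a cell adhesion molecule of the nervous system (chromosome 16, 96590840 to 97170752, minus strand), read 483, 1088 and 579 in NIC-Prmt1 and 92.4, 32.1 and 34.9 in NIC-Carm1, a difference of 3.81 ± 0.39 on the log2 scale (adjusted p = 0.00097). The synaptic adhesion gene Nrxn3 read 1175, 784 and 614 against 202, 48.5 and 59.2 (3.29 ± 0.47, adjusted p = 0.002). In both, NIC-Carm1 replicate 1 was the highest library of its group and still well below NIC-Prmt1. The annexin Anxa8 (2.47 ± 0.26) and the sulphotransferase Chst8 (2.60 ± 0.32) rose as well, and all 4 calls held throughout. Aoc1, the histamine-degrading diamine oxidase, had the largest rise of the named genes, from 104, 4.11 and 8.73 in NIC-Carm1 to 2029, 725 and 646 in NIC-Prmt1 (5.83 ± 1.25, adjusted p = 0.00917). Its call ended only on averaging (adjusted p = 0.0602 there, with a range of 0.00029 to 0.0602 across the alternatives). The epidermal genes Dsc1 (3.87), Krt75 (3.53) and Krt6a (2.96) were also among the 12 largest rises, and each was highest in NIC-Prmt1 replicate 1, the library with the most skin and hair keratin transcripts. Without that library the adjusted p of Dsc1 was 0.0729 and that of Krt75 was 0.0838, and the Krt6a call ended without NIC-Carm1 replicate 3 (0.0535). Over all alternatives the adjusted p ranged from 0.00398 to 0.11 for Dsc1, 0.0103 to 0.158 for Krt75 and 0.00617 to 0.0822 for Krt6a.

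The 12 largest falls named included the scavenger receptor genes Marco and Stab2. The scavenger receptor gene Marco (chromosome 1, 120474538 to 120505024, minus strand) read 2.12, 155 and 18.6 in NIC-Prmt1 and 1578, 1281 and 1299 in NIC-Carm1, a difference of -6.02 ± 1.42 on the log2 scale (adjusted p = 0.0133). Another scavenger receptor gene, Stab2, read 2.12, 38.3 and 1.03 against 355, 295 and 256 (-5.58 ± 1.26, adjusted p = 0.0112). NIC-Prmt1 replicate 2 lay nearest to NIC-Carm1 in both, and both calls ended on averaging, with adjusted p = 0.064 (range 0.00309 to 0.064 across the alternatives) and 0.0574 (range 0.00226 to 0.0574). The lung surfactant lectin Sftpd (-2.88 ± 0.50) and the glycine-cleaving enzyme Gldc (-2.63 ± 0.41) fell in every alternative. Apol9a and Apol9b fell by similar amounts, -3.16 and -3.13, but are near copies whose reads may be split between them.

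**Figure D2:**
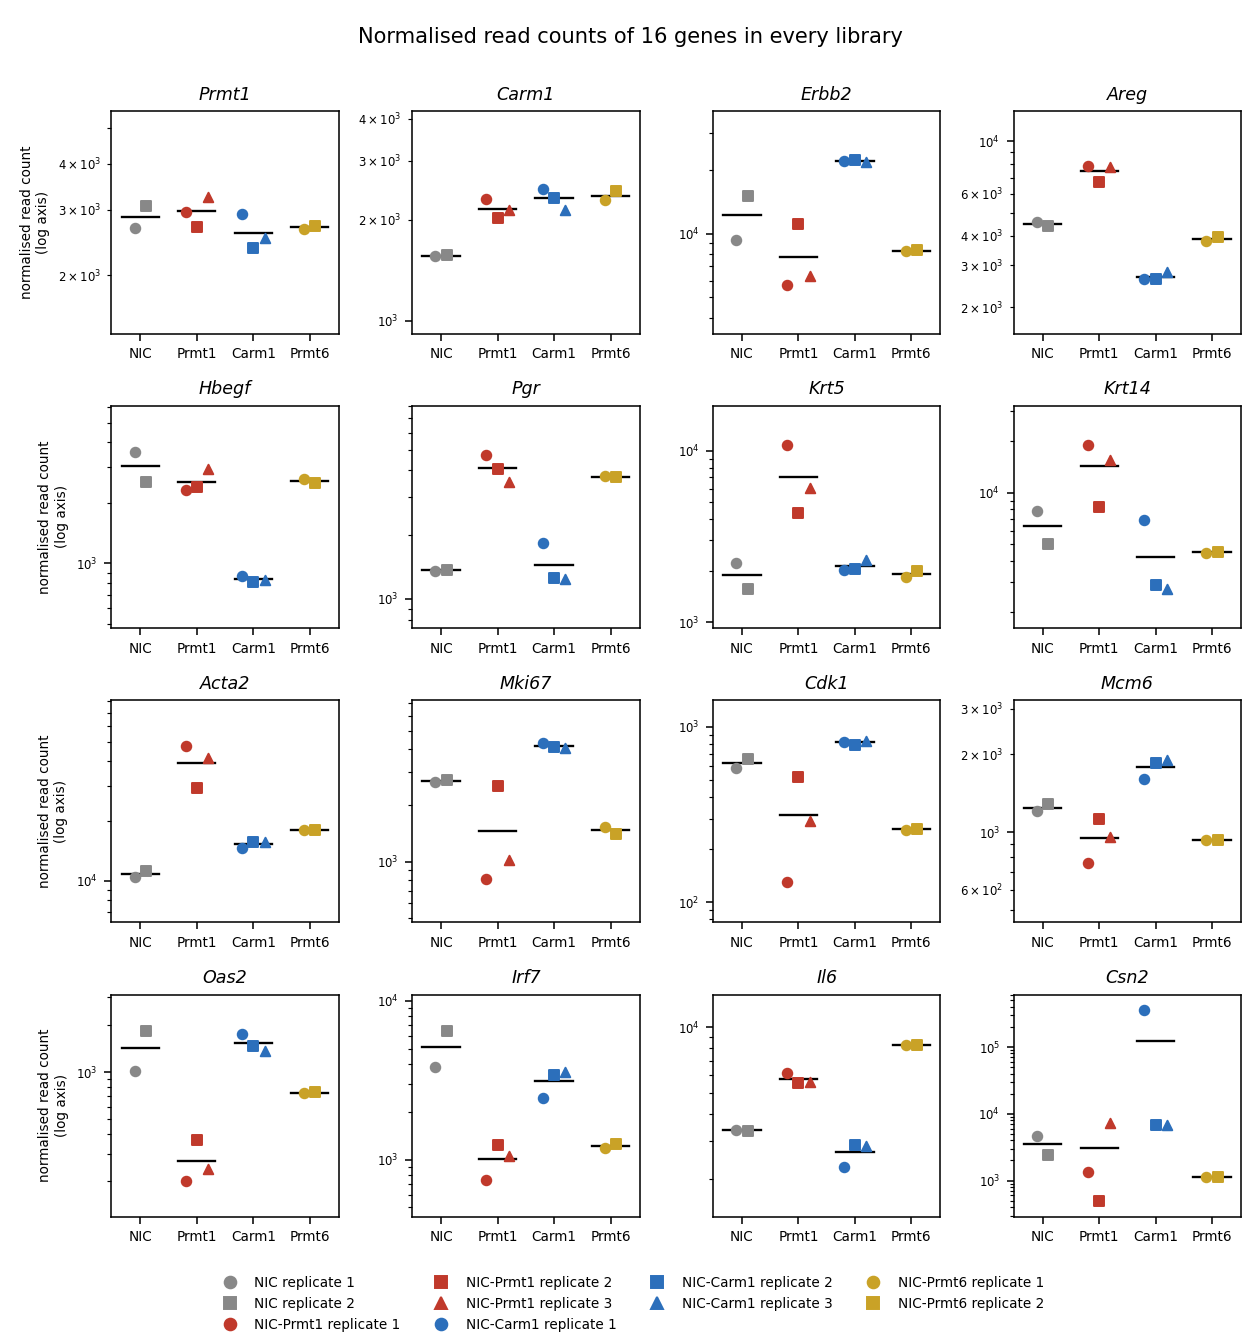
Normalised read count (vertical axes, log scale) of 16 genes in each of the 10 libraries, grouped by genotype, with a bar at each group's mean. Prmt1 and Carm1 overlap between NIC-Prmt1 and NIC-Carm1, Erbb2 lies between 21995 and 22403 in NIC-Carm1 and at most at 11187 in NIC-Prmt1, and NIC-Prmt1 replicate 2 lies nearest to NIC-Carm1 for Mki67 and Cdk1.

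ErbB receptors sit in the cell membrane and are driven by ligands that are shed from it. Genes of this family split, with 4 ligands higher and 3 receptors and 1 ligand lower in NIC-Prmt1 (4 and 4 of 12 genes; median -0.02). Amphiregulin (Areg, chromosome 5, 91139599 to 91148432, plus strand), a ligand of the EGF receptor and the main target of oestrogen signalling in the growing duct, read 7844, 6732 and 7789 in NIC-Prmt1 and 2628, 2628 and 2797 in NIC-Carm1, a difference of 1.47 ± 0.08 on the log2 scale (adjusted p = 5.08e-05). The heparin-binding ligand Hbegf read 2305, 2387 and 2932 against 862, 813 and 825 (1.60 ± 0.13, adjusted p = 0.000515). Neither overlapped between groups, and the libraries within each group lay close together. Epigen (Epgn) rose by 1.81 ± 0.24 from low values, 40.5, 28.8 and 32 in NIC-Carm1, and epiregulin (Ereg) by 2.41 ± 0.51, a call that ended on averaging (adjusted p = 0.0574 there, with a range of 1.41e-05 to 0.0574 across the alternatives). Erbb2, the receptor gene also called Neu (chromosome 11, 98412470 to 98437716, plus strand), read 5714, 11187 and 6282 in NIC-Prmt1 and 22031, 22403 and 21995 in NIC-Carm1, and fell, at -1.59 ± 0.24 (adjusted p = 0.00254, with a range of 1.55e-08 to 0.0265 across the alternatives). The NIC-Carm1 libraries lay close together, while NIC-Prmt1 replicate 2 had nearly double the value of its partners. Erbb3, the partner receptor of ERBB2, fell, at -0.52 ± 0.13, and Erbb4, a receptor of the milk-producing lineage, at -0.90 ± 0.23. The ligand Egf also fell, at -1.94 ± 0.48. These last 3 calls ended on averaging and without NIC-Prmt1 replicate 3 (adjusted p = 0.0508, 0.0623 and 0.0556) or NIC-Carm1 replicate 2 (0.0502, 0.058 and 0.0525). Erbb3 and Erbb4 also lost theirs without NIC-Prmt1 replicate 1 (0.0511 and 0.0599), and Erbb4 and Egf without NIC-Carm1 replicate 3 (0.0579 and 0.0516). The adjusted p ranged from 0.00169 to 0.0822, 0.000882 to 0.0967 and 0.000423 to 0.084 across the alternatives. The receptor gene Egfr was not shown to differ (2504, 2345 and 2042 against 2524, 2500.2 and 2467, adjusted p = 0.296).

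Genes of cell division were lower in NIC-Prmt1. All 14 mitosis genes fell (median -1.45), and so did 12 of 16 DNA replication genes (median -0.64), with none higher in either list. Averaging left 7 and 8 of them, and leaving out single libraries left at least 13 and 8. The proliferation marker Mki67 (chromosome 7, 135689784 to 135716361, minus strand) read 807, 2542 and 1019 in NIC-Prmt1 and 4277, 4095 and 4025 in NIC-Carm1 (-1.69 ± 0.33, adjusted p = 0.00621). The mitotic kinase gene Cdk1 (chromosome 10, 69335146 to 69352938, minus strand) read 130.5, 520.0 and 289 against 823, 791 and 834 (-1.59 ± 0.38, adjusted p = 0.0133), a call that ended on averaging only (adjusted p = 0.0685 there, with a range of 0.000531 to 0.0685 across the alternatives). In both genes, NIC-Prmt1 replicate 2 lay between its partners and NIC-Carm1. Over the whole mitosis list, the median distance from the NIC-Carm1 mean was -1.99, -0.61 and -1.56 in NIC-Prmt1 replicates 1 to 3. The topoisomerase Top2a (-1.43 ± 0.28) and the kinase genes Plk1 (-1.37 ± 0.25), Aurka (-1.33 ± 0.24) and Aurkb (-1.26 ± 0.24) fell in every alternative.

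Among the replication genes, Rrm2 fell furthest. Rrm2, the regulated subunit of ribonucleotide reductase, fell at -1.31 ± 0.18 (adjusted p = 0.00192), and the loading factor Cdc6 at -1.0 ± 0.17. The helicase subunit genes Mcm5, Mcm6 and Mcm2 fell at -0.99 ± 0.15, -0.93 ± 0.13 and -0.81 ± 0.11. Mcm6 (chromosome 1, 128331590 to 128359664, minus strand) read 761, 1124 and 959 in NIC-Prmt1 and 1601, 1847 and 1904 in NIC-Carm1, without overlap. Pcna, the sliding clamp of DNA polymerase, was not among them (3339, 3473 and 3532 against 3093, 3279 and 3458, adjusted p = 0.469). Start sites of replication genes often carry E2F motifs, so the promoters were searched on both strands for TTTCCCGC and TTTGGCGC, which were chosen after the values were seen. Of the 13 list genes with a RefSeq promoter of 300 bases (GRCm38.p6), 7 held a match. By promoter this was 7 of 14 (50%), compared with 1.56% of all 32851 promoters. By gene it was 53.8%, compared with 3.09% of all tested genes with a promoter. Among the genes with a match was Mcm3, which did not pass. Rrm2, Mcm2, Rrm1, Tyms and Prim1 fell without a match, and Pcna had none either. The promoters of Mcm6 (chr1:128359656-128359955, minus strand) and Mcm5 (chr8:75109259-75109558, plus strand) are shown because they hold such matches in genes that fell, with the matches in capitals.
Mcm6: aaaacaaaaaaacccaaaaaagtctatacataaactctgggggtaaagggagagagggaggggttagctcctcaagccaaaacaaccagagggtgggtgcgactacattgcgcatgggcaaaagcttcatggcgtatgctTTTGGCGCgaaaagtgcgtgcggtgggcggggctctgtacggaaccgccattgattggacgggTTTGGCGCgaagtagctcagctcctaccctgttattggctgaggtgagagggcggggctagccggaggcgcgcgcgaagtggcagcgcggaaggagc
Mcm5: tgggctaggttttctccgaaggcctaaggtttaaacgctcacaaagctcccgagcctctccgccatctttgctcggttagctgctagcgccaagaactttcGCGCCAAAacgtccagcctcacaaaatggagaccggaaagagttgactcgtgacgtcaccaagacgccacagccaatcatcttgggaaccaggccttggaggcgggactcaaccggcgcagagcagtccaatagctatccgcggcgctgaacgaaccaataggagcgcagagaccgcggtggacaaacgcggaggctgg
The Mcm6 window holds 2 matches and the Mcm5 window 1, read on the other strand. Of 12 mitosis genes with a promoter, 8 held TTTGAA, compared with 14.5% of all tested genes with a promoter. This core of the cell cycle homology region was also chosen after the values were seen. In the other lists searched on either strand, 3 of 10 genes of the amino acid response held TGATGCAA (0.751% of all tested genes with a promoter). Of these, Vldlr fell, and Chac1 and Slc7a11 did not pass. On the same measure, TGACGTCA was in 2 of 12 immediate early genes (3.35%) and TCACNCCAC in 1 of 9 cholesterol synthesis genes (1.43%). TTGCGTG was in 0 of 5 aryl hydrocarbon receptor genes (1.91%). A match is a description of the letters only.

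Of 18 p53 targets and inhibitors of cyclin-dependent kinases, 6 rose and 1 fell (median 0.29; 5 and 0 on averaging). The inhibitor gene Cdkn1a (p21, chromosome 17, 29090976 to 29100727, plus strand) read 5901, 5405 and 5598 in NIC-Prmt1 and 2959, 3602 and 3336 in NIC-Carm1, a difference of 0.78 ± 0.09 on the log2 scale (adjusted p = 0.00105). The stress cytokine Gdf15 rose by 1.35 ± 0.19 and the p53 target Phlda3 by 0.99 ± 0.13, both in every alternative. Trp53inp1, a p53 target that takes part in cell death, fell, at -0.75 ± 0.18, except on averaging. The direct target Mdm2 (0.25), which feeds back on p53, did not pass the test.

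Interferon-stimulated genes encode antiviral enzymes and the factors that induce them. Of 24 such genes, 21 fell and 1 rose (median -1.25; 12 and 0 on averaging, and at least 16 fell when single libraries were left out). The antiviral enzyme gene Oas2 (chromosome 5, 120730333 to 120749853, minus strand) read 202, 366 and 242 in NIC-Prmt1 and 1762, 1458 and 1364 in NIC-Carm1, a difference of -2.54 ± 0.25 on the log2 scale (adjusted p = 0.000737). The master regulator gene Irf7 (chromosome 7, 141262706 to 141266481, minus strand) read 740.5, 1227 and 1050.0 against 2457, 3429 and 3533 (-1.65 ± 0.23, adjusted p = 0.00192). Neither overlapped between groups, and both calls held throughout. Oas1a (-1.89 ± 0.26), Oas3 (-1.80 ± 0.19) and Oasl2 (-1.60 ± 0.21), of the same enzyme family, also fell in every alternative. The antiviral GTPase Mx1 fell at -2.14 ± 0.50, a call that ended on averaging (adjusted p = 0.0765 there, with a range of 0.000201 to 0.0765 across the alternatives). Ifit2 and Stat2 did not pass (363, 283 and 278 against 151, 303 and 344, and 1681, 1946 and 1596 against 1833, 2389 and 2319). The chemokine gene Cxcl10, which interferon and NF-kB both induce, was the member that rose (0.75 ± 0.16, not held on averaging). Of 7 MHC class II genes, none passed, with log2 fold changes from -0.60 (Ciita) to 0.14 (H2-DMa) (limma; 1 at an unadjusted p under 0.05, 1 with DESeq2 and 0 with edgeR).

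The interferon-stimulated response element that ISGF3 and interferon regulatory factors bind has GAAANNGAA at its core. Of 16 list genes with a RefSeq promoter, 11 held it on either strand (11 of 18 promoters, 61.1%), compared with 8.56% of all promoters. Among these 11 were 9 genes that fell, Cxcl10 and Stat2. Irf7, Irf9, Oasl2 and Xaf1, which fell, and Ifit2 had no match in this window. The promoters of Isg15 (chr4:156200769-156201068, minus strand), Ifit1 (chr19:34640639-34640938, plus strand) and Oas1a (chr5:120907476-120907775, minus strand) are shown for 3 genes that fell, with matches in capitals, which run together where they overlap or touch.
Isg15: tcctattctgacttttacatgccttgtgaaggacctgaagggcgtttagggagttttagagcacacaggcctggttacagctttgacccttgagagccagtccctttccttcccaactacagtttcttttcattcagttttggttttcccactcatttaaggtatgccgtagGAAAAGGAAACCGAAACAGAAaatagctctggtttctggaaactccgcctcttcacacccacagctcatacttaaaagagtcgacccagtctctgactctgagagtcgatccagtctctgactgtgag
Ifit1: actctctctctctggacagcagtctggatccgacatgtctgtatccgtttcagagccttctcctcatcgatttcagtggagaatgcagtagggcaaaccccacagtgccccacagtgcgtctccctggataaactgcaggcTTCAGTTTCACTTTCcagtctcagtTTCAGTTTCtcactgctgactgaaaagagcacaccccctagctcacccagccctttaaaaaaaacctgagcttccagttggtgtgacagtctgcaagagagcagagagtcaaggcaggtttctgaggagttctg
Oas1a: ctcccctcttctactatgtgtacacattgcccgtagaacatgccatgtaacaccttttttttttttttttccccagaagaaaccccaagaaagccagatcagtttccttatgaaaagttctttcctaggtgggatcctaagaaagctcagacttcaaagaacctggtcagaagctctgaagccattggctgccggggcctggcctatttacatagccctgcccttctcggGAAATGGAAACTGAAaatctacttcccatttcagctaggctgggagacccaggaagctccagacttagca
Isg15 and Ifit1 hold 3 matches each and Oas1a holds 2. Their log2 fold changes were -0.84, -1.36 and -1.89.

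Basal and myoepithelial genes were higher in NIC-Prmt1. Of 12 such genes, 11 rose (median 1.33; 8 on averaging, and 11 whichever library was left out). The basal keratin genes Krt5 and Krt17 rose by 1.63 ± 0.27 and 2.08 ± 0.31, and Krt14 by 1.82 ± 0.38. Krt5 (chromosome 15, 101707070 to 101712898, minus strand) read 10794, 4320.1 and 6037 in NIC-Prmt1 and 2014, 2039 and 2298 in NIC-Carm1 (adjusted p = 0.0035), highest in NIC-Prmt1 replicate 1. Smooth muscle actin (Acta2, chromosome 19, 34241090 to 34255590, minus strand) read 47531, 29112 and 41248 against 14691, 15634 and 15722 (1.33 ± 0.16, adjusted p = 0.00125), and the contractile genes Cnn1 (1.39 ± 0.15) and Tagln (1.33 ± 0.15) rose beside it. The Krt14 call ended on averaging (adjusted p = 0.0585 there, with a range of 6.31e-05 to 0.0585 across the alternatives). Trp63, the transcription factor that defines basal cells, read 786, 428 and 389.6 against 356, 377 and 329 and did not pass (adjusted p = 0.125). Summed basal markers were 7037, 4026 and 5176 CPM in NIC-Prmt1 replicates 1 to 3 and 2062 to 2269 in NIC-Carm1. Skin and hair keratinocyte markers, summed the same way, were 1255, 11.5 and 95.9 in NIC-Prmt1 replicates 1 to 3. They were 8.25 to 11.7 in NIC-Carm1. Within NIC-Prmt1, the basal and the skin sums were both highest in replicate 1 and lowest in replicate 2. Of 10 skin and hair genes tested, none passed with limma (median 3.73), 5 had an unadjusted p under 0.05, and 4 passed with DESeq2, 10 with edgeR and 6 without NIC-Prmt1 replicate 2. Krt1, a keratin of differentiated epidermis, read 6021, 9.32 and 568 in NIC-Prmt1 and 7.88, 8.22 and 7.76 in NIC-Carm1. NIC-Prmt1 replicate 1 was far above NIC-Carm1, replicate 3 between, and replicate 2 near it. The part that skin cells play in the basal keratin values was not tested. All 7 pericyte genes rose too (median 0.75), and the part of vessels in the contractile gene values was not tested.

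**Figure D3:**
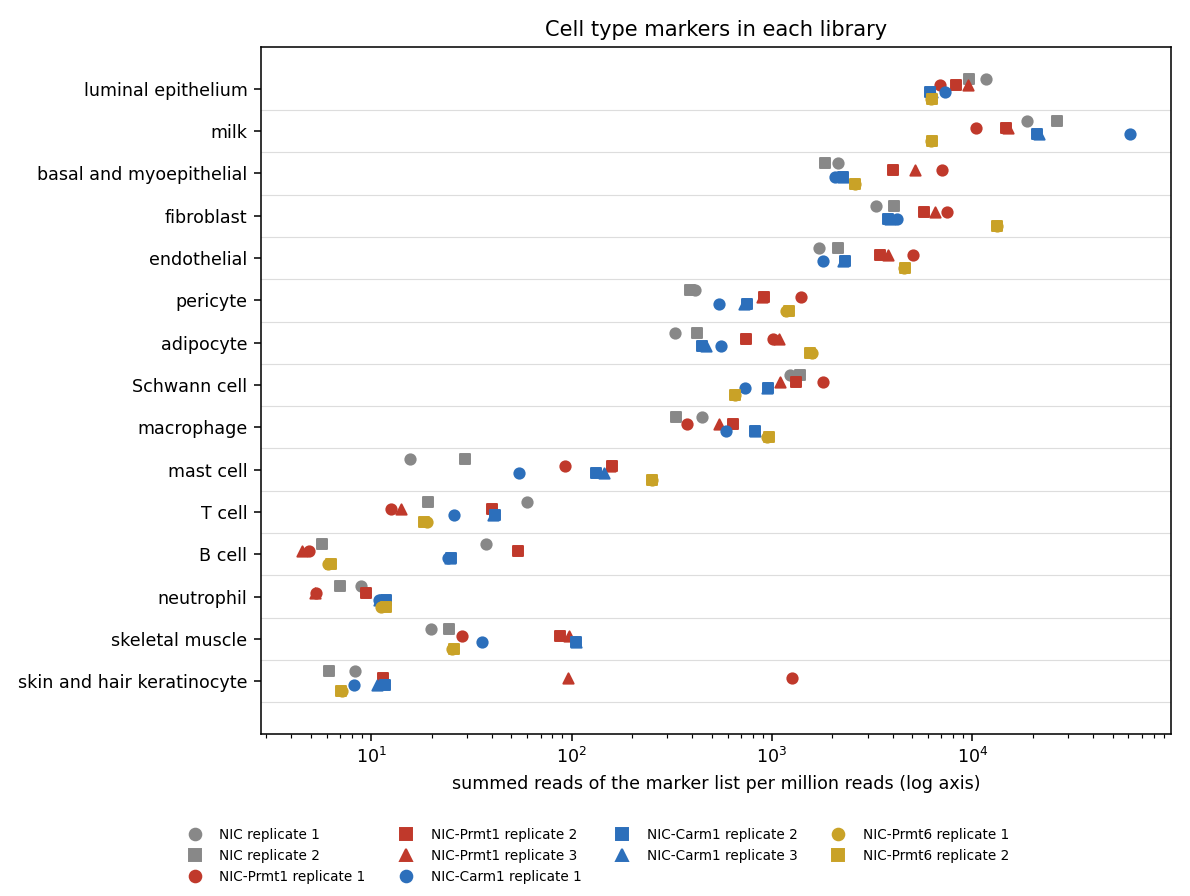
Summed CPM (horizontal axis, log scale) of cell type marker lists, with 1 symbol per library and 1 colour per genotype. Basal markers lie at 4026 to 7037 in NIC-Prmt1 and 2062 to 2269 in NIC-Carm1, skin markers reach 1255 in NIC-Prmt1 replicate 1, and milk markers reach 60876 in NIC-Carm1 replicate 1.

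Hormone-sensing luminal genes that passed were all higher in NIC-Prmt1, 4 of 11 (median 0.78; 4 on averaging). The progesterone receptor gene Pgr (chromosome 9, 8899833 to 8968611, plus strand) read 4718, 4051 and 3519.9 in NIC-Prmt1 and 1829, 1248 and 1241 in NIC-Carm1, a difference of 1.52 ± 0.15 on the log2 scale (adjusted p = 0.000941). Its groups did not overlap, and the lowest NIC-Prmt1 library was nearly double the highest NIC-Carm1 library. Prominin 1 (Prom1) rose by 0.92 ± 0.17, and the others that rose were Areg and the transcription factor gene Tbx3 (0.88). The oestrogen receptor gene Esr1 read 1528, 1518 and 1327 against 629.6, 1273 and 1364 (adjusted p = 0.217), and its pioneer factor Foxa1 read 3803, 3041 and 3124 against 953, 2708 and 2759 (adjusted p = 0.116). In both of these, NIC-Carm1 replicate 1 was far below its partners, which lay at or near the NIC-Prmt1 values.

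General luminal genes moved both ways: of 12, 4 rose and 1 fell (median 0.20; 3 and 1 on averaging). Krt7 and Krt19 rose by 1.10 ± 0.09 and 0.81 ± 0.13, the tight junction gene Cldn4 by 1.14 and the epithelial factor Elf3 by 0.97 ± 0.17, while the epithelial splicing regulator Esrp1 fell, at -0.56 ± 0.09. Epcam read 17215, 24259.5 and 25941 against 25552, 24663 and 25644 and was not shown to differ (adjusted p = 0.353). Of 8 genes of luminal progenitors, 4 fell and 2 rose (median -0.67; 2 and 1 on averaging, and 2 fell without NIC-Prmt1 replicate 1). The ETS factor Ehf fell, at -1.02 ± 0.12, as did the casein Csn3, at -1.24 ± 0.24, in every alternative. Elf5, the ETS factor that directs milk-producing cells, read 3764, 4401 and 5765 in NIC-Prmt1 and 11707, 6764 and 6765 in NIC-Carm1 (-0.83 ± 0.21). It was highest in NIC-Carm1 replicate 1, and its call ended without NIC-Prmt1 replicate 1 (adjusted p = 0.0678), on averaging (0.0512) and with the 6 libraries fitted alone (0.0523), over a range of 0.000889 to 0.0678. The integrin Itga2 (0.97 ± 0.18) rose in every alternative. The aldehyde dehydrogenase Aldh1a3 rose too (1.32 ± 0.33), but not without NIC-Prmt1 replicate 1 or 3 (adjusted p = 0.0619 and 0.0591), without NIC-Carm1 replicate 2 or 3 (0.0547 and 0.0544) or on averaging, over a range of 0.000249 to 0.0883.

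Several milk genes were far higher in NIC-Carm1 replicate 1 than in any other of the 6 libraries. Of 12, 5 fell (median -1.94), but only 1 on averaging and 1 without NIC-Prmt1 replicate 1. Beta-casein (Csn2, chromosome 5, 87692624 to 87699630, minus strand) read 1342, 487 and 7259.8 in NIC-Prmt1 and 358442, 6825 and 6751 in NIC-Carm1, so NIC-Carm1 replicate 1 stood far above the others, and the groups overlapped (adjusted p = 0.0658). The whey protein gene Wap had the same pattern, at 9.55, 10.4 and 41.3 against 5937, 62.5 and 55.3. The milk mucin gene Glycam1 read 14.9, 2668 and 12.4 against 15987, 5057 and 4969 and had the largest fall of all named genes (-6.48 ± 1.72, adjusted p = 0.0211). Its call ended with edgeR, on averaging, and without NIC-Prmt1 replicate 1 (adjusted p = 0.0782), NIC-Prmt1 replicate 3 (0.08) or NIC-Carm1 replicate 1 (0.0528), over a range of 0.000253 to 0.134. Csn1s2b fell in every alternative, from 63.1, 49.3 and 55.3 to 3.18, 12.4 and 16.5 (-2.51 ± 0.56). In NIC-Carm1 replicate 1, Csn1s2a read 210411 and Csn1s2b 63.1. Whether reads are split between casein genes was not tested. The iron carrier transferrin (Trf), the most abundant transcript of the NIC-Carm1 libraries, fell at -1.10 ± 0.31, a call that ended without NIC-Prmt1 replicate 1 (adjusted p = 0.0658) or any NIC-Carm1 replicate (0.0661, 0.0532 and 0.0578), over a range of 0.000213 to 0.112. Lactoferrin (Ltf) did not pass (30765, 22151 and 36348 against 31455, 17428 and 18327).

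Genes of vessels and stroma were higher in NIC-Prmt1. All 12 endothelial genes rose (median 0.95), and all 12 also on averaging and whichever library was left out. Pecam1, an adhesion molecule between endothelial cells (chromosome 11, 106654217 to 106750628, minus strand), read 19219, 13384 and 15533 in NIC-Prmt1 and 7126, 8686 and 8789 in NIC-Carm1 (0.96 ± 0.14, adjusted p = 0.00243). The cadherin Cdh5 (0.95 ± 0.12) and the VEGF receptor Kdr (0.88 ± 0.13) rose by similar amounts. All 7 pericyte genes rose (median 0.75; 4 on averaging), with Pdgfrb at 0.90 ± 0.15 and Kcnj8 at 0.75 ± 0.12. Of 12 fibroblast genes, 10 rose (median 0.91; 7 on averaging), among them the collagen Col6a3 (1.36 ± 0.15) and the matrix proteins Fbln1 (1.14 ± 0.13) and Mfap5 (0.99 ± 0.13). Summed endothelial markers were 3448 to 5058 CPM in NIC-Prmt1 and 1796 to 2311 in NIC-Carm1, and fibroblast markers 5712 to 7456 and 3784 to 4204. Neither range overlapped between groups.

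Of 12 mesenchymal genes, 10 rose (median 0.95; 6 on averaging). The transcription factor genes Twist1, Snai1 and Snai2 rose by 1.40 ± 0.19, 0.94 ± 0.13 and 1.05 ± 0.22, and the intermediate filament Vim by 1.17 ± 0.19. Vim (chromosome 2, 13573927 to 13582826, plus strand) read 32048, 21769.6 and 26137 in NIC-Prmt1 and 8560.2, 13554 and 13859 in NIC-Carm1, lowest in NIC-Carm1 replicate 1. The Snai2 call ended on averaging (adjusted p = 0.0513 there, with a range of 0.000117 to 0.0513 across the alternatives). Fibroblasts make these genes too, and their markers moved the same way. Whether epithelial cells share in the change was not tested. Of 7 Schwann cell genes, 4 rose and 1 fell (median 1.34; 4 and 1 on averaging): the myelin genes Mbp (1.34 ± 0.21) and Prx (1.64 ± 0.23) were among those that rose, while Sox10, a transcription factor of glia that some mammary epithelial cells also express, fell, at -0.96 ± 0.12. Of 10 adipocyte genes, 3 rose (median 0.25; 1 on averaging), among them the adipocyte hormone gene Lep (1.90) and the fatty acid carrier gene Fabp4 (1.24 ± 0.16). The Lep call ended on averaging and with the 6 libraries alone (limma adjusted p = 0.0733). It also ended without NIC-Prmt1 replicate 1 or 2 (0.0894 and 0.0626) or NIC-Carm1 replicate 2 or 3 (0.0619 and 0.0812). The 7 adipocyte genes that did not pass included Adipoq (-0.27), another hormone of these cells, Plin1 (0.22) and Cidec (-0.01). All 12 endothelial genes rose, and the part of vessels in the Fabp4 value was not tested.

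Leukocyte lists held few called genes, and their counts moved with single libraries. Of 11 macrophage genes, 1 rose and 1 fell (the complement gene C1qc, -0.58 ± 0.17), with a median of -0.50, and neither call held on averaging. The macrophage falls numbered 5 without NIC-Carm1 replicate 1, 3 without NIC-Prmt1 replicate 2, 2 without either NIC library, and 0 without NIC-Prmt1 replicate 1, NIC-Carm1 replicate 2 or 3 or either NIC-Prmt6 library. None of 11 genes of alternatively activated macrophages, 8 of T cells, 7 of B cells, 7 of mast cells and 5 of neutrophils passed with limma. At an unadjusted p under 0.05 there were 0, 1, 0, 0 and 2, edgeR called 0 in each, and DESeq2 called 1, a neutrophil gene. Without NIC-Prmt1 replicate 2, 4 B cell, 3 T cell and 2 neutrophil genes were lower in NIC-Prmt1. The summed B cell markers stood at 53.9 CPM in NIC-Prmt1 replicate 2, at 4.92 and 4.54 in its partners and 24.2 to 24.9 in NIC-Carm1, so the groups overlapped through that library. The dendritic cell list had 1 higher and 1 lower gene of 7, Zbtb46 (0.58 ± 0.14) and the integrin Itgax (-0.81 ± 0.13), with 3 lower without NIC-Prmt1 replicate 2. The Itgax call held throughout, while that of Zbtb46 ended on averaging and without NIC-Carm1 replicate 3 (adjusted p = 0.0504, over a range of 0.00217 to 0.0882).

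**Figure D4:**
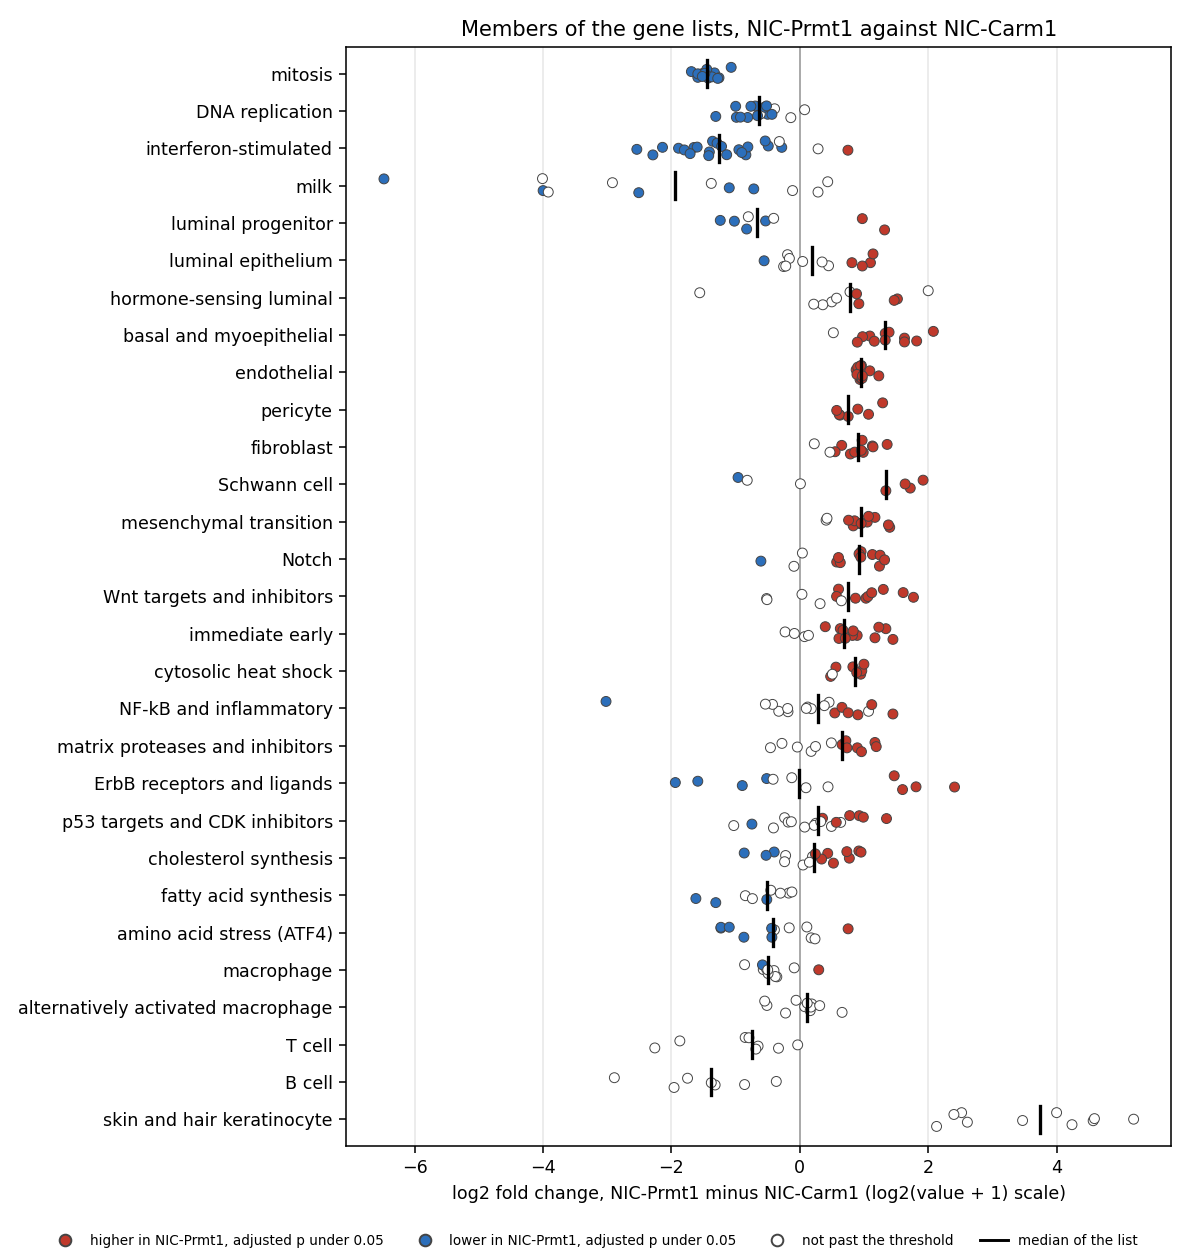
Log2 fold change (horizontal axis, NIC-Prmt1 minus NIC-Carm1, log2(value + 1) scale) of every tested member of the gene lists shown, with the list median as a black bar. All 14 mitosis genes lie below 0 and all 12 endothelial genes above it, both past the threshold, while the skin and hair genes lie far above 0 without passing.

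Notch signalling runs from membrane-bound ligands to receptors and on to repressors of the Hes and Hey families. Of 13 genes of the pathway, 10 rose and 1 fell (median 0.92; 5 and 0 on averaging). The endothelial ligand gene Dll4 (chromosome 2, 119325784 to 119335962, plus strand) read 1481, 1639 and 1809.5 in NIC-Prmt1 and 715, 744 and 788 in NIC-Carm1, a difference of 1.13 ± 0.09 on the log2 scale (adjusted p = 0.000515). Among the targets, Nrarp, a feedback inhibitor, rose by 1.32 ± 0.15, Heyl by 1.24 ± 0.21 and Hes1 by 0.95 ± 0.19, all in every alternative. Hey1 fell, at -0.61 ± 0.16, though not on averaging or without NIC-Prmt1 replicate 3 (adjusted p = 0.0776) or NIC-Carm1 replicate 2 or 3 (0.0782 and 0.0767), over a range of 0.000186 to 0.124. The receptor genes Notch1 (0.04) and Notch2 (-0.09) did not pass. Several of the genes that rose are made by vessels, whose markers rose as well, and the part of the vessels was not tested.

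Of 14 Wnt targets and inhibitors, 9 rose and none fell (median 0.76; 5 on averaging). Lgr5, a receptor of R-spondins that marks stem cells in several epithelia, read 808, 446 and 462 against 149, 186 and 210.4 (1.61 ± 0.25, adjusted p = 0.00283). The ligand gene Wnt10a rose by 1.77 ± 0.30 and the secreted modulator gene Dkk3 by 1.30 ± 0.24, and the feedback target Axin2 by 0.60. Of 17 TGF-beta and BMP genes, 6 rose and 1 fell (median 0.35; 4 and 0 on averaging). The BMP target Id1 (chromosome 2, 152736251 to 152737410, plus strand) read 1171, 884 and 1374 in NIC-Prmt1 and 287, 428 and 362 in NIC-Carm1 (1.66 ± 0.18, adjusted p = 0.000983), and the inhibitory Smad gene Smad7 rose by 1.12 ± 0.15. The ligand genes Tgfb1 (0.24), Tgfb2 (-0.45) and Tgfb3 (0.04) did not pass.

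Immediate early genes, which switch on within minutes of a stimulus, were higher in NIC-Prmt1: 12 of 16 rose (median 0.69; 7 on averaging). Fosb (chromosome 7, 19302696 to 19310051, minus strand), a partner in the AP-1 complex, read 87536, 100479.9 and 117001 in NIC-Prmt1 and 32419, 40371 and 38560.0 in NIC-Carm1 (1.45 ± 0.18, adjusted p = 0.0015). The factor gene Klf4 rose by 1.23 ± 0.13, Egr2 by 1.17 ± 0.18 and Myc by 0.71 ± 0.12, each in every alternative. Fos itself rose by 0.63 ± 0.20, and its call ended in 12 of 22 alternatives (adjusted p from 0.00313 to 0.12). Btg2 did not pass (17775, 23629.8 and 27836 against 20699.9, 25869.5 and 26059.7). Of 8 cytosolic heat shock genes, 7 rose (median 0.86; 3 on averaging), with the small chaperone Hspb1 at 1.0 ± 0.14, the co-chaperones Dnajb1 at 0.96 ± 0.14 and Bag3 at 0.89 ± 0.10. Hspa1a and Hspa1b are near copies and are uncertain as single genes. The cells were freed by enzymes, and the part of that step in the immediate early and heat shock values was not tested.

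Among 18 NF-kB and inflammatory genes, 6 rose and 1 fell (median 0.28; 1 and 0 on averaging, and 3 rose without NIC-Prmt1 replicate 3 or NIC-Carm1 replicate 3). The cytokine gene Il6 (chromosome 5, 30013114 to 30019981, plus strand) read 6166, 5536 and 5618 in NIC-Prmt1 and 2279.7, 2863 and 2853 in NIC-Carm1, a difference of 1.12 ± 0.10 on the log2 scale (adjusted p = 0.000515), without overlap and in every alternative. The granulocyte factor Csf3 rose by 1.45 ± 0.33 and the neutrophil chemokine Cxcl1 by 0.54 ± 0.12, and both calls ended on averaging only (adjusted p = 0.0711 and 0.0701 there, with ranges of 0.000113 to 0.0711 and 0.000327 to 0.0701 across the alternatives). Ccl20 fell at -3.02 ± 0.94 from 507, 27.1 and 32 in NIC-Carm1 to 6.37, 13.5 and 7.23 in NIC-Prmt1, mostly through NIC-Carm1 replicate 1, and its call ended in 10 alternatives (adjusted p from 0.0223 to 0.115). The cytokine genes Tnf (0.12) and Il1b (-0.54) did not pass.

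**Figure D5:**
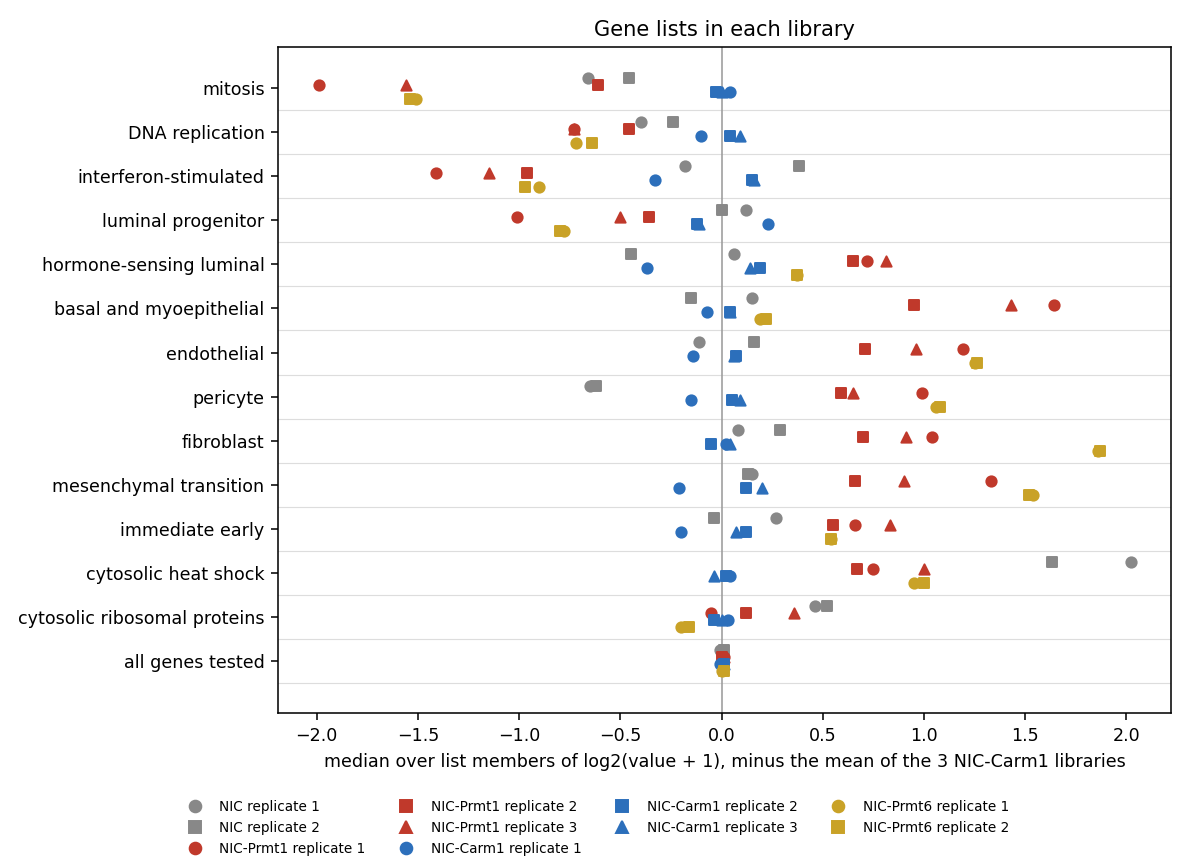
Median over each gene list of log2(value + 1) in each library, minus the mean of the 3 NIC-Carm1 libraries (horizontal axis). On the mitosis list NIC-Prmt1 replicates 1 to 3 lie at -1.99, -0.61 and -1.56, and the medians over all genes lie between -0.01 and 0.01.

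Lipid genes moved in different directions. Of 16 genes of cholesterol synthesis, 8 rose and 3 fell (median 0.22; 2 and 0 on averaging, and 5 rose without NIC-Prmt1 replicate 1 or NIC-Carm1 replicate 2 or 3). The early enzyme Hmgcs1 rose by 0.92 ± 0.15 in every alternative, while Dhcr7, the enzyme of a late step, fell, at -0.87 ± 0.22. The Dhcr7 call ended on averaging and without NIC-Carm1 replicate 2 or 3 (adjusted p = 0.0512 and 0.0508), over a range of 0.00149 to 0.0827. Of 9 fatty acid synthesis genes, 3 fell and none rose (median -0.52; 1 on averaging). Srebf1, the transcription factor gene of the pathway (chromosome 11, 60199089 to 60222581, minus strand), read 7740.1, 25337 and 13193 in NIC-Prmt1 and 38795, 45842 and 42687 in NIC-Carm1 (-1.62 ± 0.34, adjusted p = 0.00834). The call ended on averaging only (adjusted p = 0.0549 there, with a range of 0.000258 to 0.0549 across the alternatives). The malic enzyme Me1 fell by 0.51 ± 0.10 on the log2 scale in every alternative, and the synthase Fasn (-0.85) did not pass.

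Of 12 genes of the amino acid response, which the factor ATF4 drives, 6 fell and 1 rose (median -0.42; 3 and 0 on averaging). The amino acid transporter gene Slc7a5 (chromosome 8, 121881150 to 121907694, minus strand) read 2102, 3970.1 and 3264 in NIC-Prmt1 and 6391, 7641 and 7259 in NIC-Carm1 (-1.23 ± 0.19, adjusted p = 0.00278). The serine synthesis gene Psat1 fell, at -1.23 ± 0.17, and the lipoprotein receptor Vldlr at -1.10 ± 0.14, in every alternative. The member that rose was Atf4 itself (0.75 ± 0.15), a call that ended on averaging (adjusted p = 0.0599 there, with a range of 4.54e-05 to 0.0599 across the alternatives). Among 10 genes of protein folding in the endoplasmic reticulum, 2 fell (median -0.23; 2 on averaging): Xbp1, the factor that widens secretory capacity, read 7442, 15758 and 12423 against 26641, 30584 and 30929.9 (-1.37 ± 0.24, adjusted p = 0.00422), and Herpud1 fell at -0.56 ± 0.09. The chaperone Hspa5 (0.28) did not pass. Of 13 genes of glycolysis and hypoxia, 4 fell and 1 rose (median -0.03; 0 and 1 on averaging). The fall count was 2 without NIC-Carm1 replicate 2 and 1 without NIC-Carm1 replicate 3. The vasodilator peptide gene Adm rose by 0.84 ± 0.18 in every alternative, and the oxygen sensor gene Egln3 fell, at -0.84 ± 0.17, except on averaging.

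Matrix genes that passed were mostly higher in NIC-Prmt1. Several collagens are also on the fibroblast list, where 10 of 12 genes rose, and the part of fibroblasts was not tested. Of 42 collagen genes, 21 rose and 3 fell (median 0.70; 10 and 1 on averaging). Col17a1, the collagen of basal cell anchoring junctions (chromosome 19, 47646344 to 47692094, minus strand), read 4591, 2742 and 3205 in NIC-Prmt1 and 1156, 1107 and 1140.5 in NIC-Carm1 (1.60 ± 0.18, adjusted p = 0.00107), and Col6a2 and Col6a3 of interstitial matrix rose by 1.12 ± 0.13 and 1.36 ± 0.15. The collagens that fell were all of cartilage type: Col9a1, Col9a2 and Col11a1. Col9a1 (chromosome 1, 24177610 to 24252684, plus strand) read 1741, 12972 and 4932 against 20205, 20929 and 21929 (-2.13 ± 0.54, adjusted p = 0.0175), with NIC-Prmt1 replicate 2 nearest to NIC-Carm1. The Col9a1 call ended on averaging, without NIC-Prmt1 replicate 3 (adjusted p = 0.0518) and without NIC-Carm1 replicate 3 (0.0503), over a range of 0.000669 to 0.0804, that of Col11a1 (-1.70 ± 0.37) on averaging only, and that of Col9a2 (-1.18 ± 0.25) in no alternative. Of 19 integrin and laminin genes, 12 rose and 2 fell (median 0.43; 6 and 0 on averaging). The laminin gene Lama3 (1.11 ± 0.19) of the epithelial basement membrane and the fibronectin receptor Itga5 (0.91 ± 0.11) rose in every alternative. The 2 falls, Itgb3 (-0.82 ± 0.26) and Itgb6 (-0.55 ± 0.18), ended in 12 and 13 of the 22 alternatives, both of them without NIC-Prmt1 replicate 3 (adjusted p = 0.0573 and 0.109, over ranges of 0.00763 to 0.127 and 0.00857 to 0.194).

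Of 13 matrix proteases and inhibitors, 7 rose and none fell (median 0.66; 6 on averaging). The plasminogen activators Plau (0.73 ± 0.09) and Plat (0.90 ± 0.10) and the urokinase receptor Plaur (1.19 ± 0.16) rose in every alternative, and the metalloprotease inhibitors Timp1 (0.66), Timp2 (0.72) and Timp3 (1.17) rose too. None of the 6 metalloprotease genes tested passed, with log2 fold changes from -0.46 (Mmp9) to 0.49 (Mmp2). Of 31 keratin genes tested, 11 rose (median 1.84; 8 on averaging), 20 without NIC-Prmt1 replicate 2 and 23 with edgeR. Among them, Krt7, Krt19, Krt80 (1.71 ± 0.19) and Krt4 (2.23 ± 0.30) rose, and their values did not overlap between groups. The keratin list includes skin and hair keratins. Relative to the NIC-Carm1 mean, its median stood at 2.87, 0.93 and 1.43 in NIC-Prmt1 replicates 1 to 3. The part that skin cells play in these values was not tested. Of 6 aryl hydrocarbon receptor genes, 2 rose, Tiparp (0.82 ± 0.14) and Nqo1 (0.45 ± 0.11). The Nqo1 call ended on averaging and without NIC-Prmt1 replicate 3 (adjusted p = 0.0514) or NIC-Carm1 replicate 3 (0.0585), over a range of 0.00151 to 0.101, and Tiparp passed in every alternative.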

How the data were processed

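The deposited table holds 1 column of normalised read counts per library, a signal that the authors made by dividing the reads of each gene by library size factors. TopHat2 2.0.10, HTSeq 0.6.0, DESeq 1.18.0 and the build mm10 are named per the submitters' processing notes. No label or header used here gives the annotation, the strand setting or any filter, so overlapping and antisense genes cannot be told apart. All 10 columns were matched to samples by name, and 0 columns were left over. Every value came out as a whole number of reads within a tolerance of 0.01 after division by the library's step, which gave recovered reads for depth, CPM (counts per 1000000 reads) and the count tests. The lowest maximum of any gene over the libraries was 10 recovered reads.

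Genes that reached 10 in 2 or more libraries were kept. Log2(value + 1) was fitted with limma 3.58.1 (limma-trend, R 4.3.3) over all 10 libraries with 4 group means and 6 residual degrees of freedom. Benjamini-Hochberg adjustment ran over all 15694 genes, with a threshold of 0.05. Fold changes are on that log2 scale, NIC-Prmt1 minus NIC-Carm1, ± standard error, and understate changes of low genes. The design had assumed normalised counts, which the files hold. The fit was run on simulated counts in which every library was drawn independently. Near-identical and outlying libraries were not part of that simulation. Alternatives were edgeR 4.0.16 (4188 genes called), DESeq2 1.42.0 and voom on recovered reads, other rescalings, pseudocounts and filters, a replicate block, the 6 libraries alone, near-identical libraries averaged and each replicate left out, 22 in all.

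Genes were named by rule: the 12 largest rises and falls and the 6 smallest p-values in each direction among called genes whose groups did not overlap, the methyltransferase family, up to 3 per list and direction, and genes a statement turns on. The members, lists and promoter motifs were chosen with earlier results of these data known. Gene positions are from GENCODE vM21 (GRCm38) and promoters from RefSeq (GRCm38.p6). Some genes of these lists are counted but not reported here by name.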

Additional observations from a re-analysis of the deposited data

How the results depend on the processing

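With the near-identical libraries averaged, 1355 genes differed (990 higher and 365 lower in NIC-Prmt1), 672 of them at least 2-fold (506 and 166). This fit has fewer libraries. With the 6 libraries alone 1140 genes were lower, and the log2 fold change of Prmt1 passed the threshold only with voom (0.29, against 0.20 with limma). Leaving out single replicates gave 2626 to 4694 changed genes, 1568 to 2481 higher and 977 to 2213 lower, and past 2-fold 661 to 1850, 436 to 1058 and 225 to 792. Changed genes numbered 2664 without NIC-Prmt1 replicate 1, 2693 without NIC-Carm1 replicate 2 and 2626 without NIC-Carm1 replicate 3. Genes at least 2-fold lower numbered 225 without NIC-Prmt1 replicate 1, 792 without NIC-Prmt1 replicate 2, 304 without NIC-Carm1 replicate 2 and 311 without NIC-Carm1 replicate 3. A fit with the replicate number as a block called 3691 genes. Deviations of same-numbered libraries correlated at 0.0212, 0.1 and -0.119, and those of differently numbered libraries at -0.157 to 0.171. Because NIC-Carm1 replicates 2 and 3 were near-identical, these values cannot tell whether the numbers pair the libraries. Of 175 named genes that passed, 116 passed in all 22 alternatives, and no call among the 205 named genes reversed. Counts of the remaining alternatives lay between 3263 and 5700 changed genes, except 2825 with the 6 libraries alone and 2899 without NIC-Prmt1 replicate 3. The milk falls numbered 3 without NIC-Prmt1 replicate 3, without either NIC-Prmt6 library, with DESeq2 and with the block. The cause of these differences was not tested. Depth limits low genes such as Prmt8.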

Other observations

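Housekeeping families moved little. Of 76 cytosolic ribosomal protein genes, 2 rose (Rplp2 at 0.30 and the related gene Rps4l at 1.62; median 0.14), with 1 called on averaging. None of 36 NADH dehydrogenase subunit genes passed with limma (median -0.11; 5 at an unadjusted p under 0.05, 0 with edgeR and 0 with DESeq2), and 1 of 38 proteasome subunit genes fell (Psmd5, -0.46; median -0.09; 0 on averaging). None of 12 skeletal muscle genes passed with limma (1 at an unadjusted p under 0.05, 0 with edgeR and 0 with DESeq2). Their list medians split libraries within both groups. Relative to the NIC-Carm1 mean they stood at -1.46, 0.36 and 0.48 in NIC-Prmt1 replicates 1 to 3 and at -1.04, 0.54 and 0.50 in NIC-Carm1.

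The libraries labelled NIC and NIC-Prmt6 did not take the same place on every list. On the same scale, the mitosis median was -0.66 and -0.46 in the NIC libraries and -1.51 and -1.54 in the NIC-Prmt6 libraries, the latter near NIC-Prmt1 replicates 1 and 3. The basal median was 0.15 and -0.15 in NIC and 0.19 and 0.22 in NIC-Prmt6, all below the lowest NIC-Prmt1 library (0.95). The endothelial median was -0.11 and 0.16 in NIC and 1.25 and 1.26 in NIC-Prmt6, above every NIC-Prmt1 library (0.71 to 1.19). The interferon median was -0.18 and 0.38 in NIC and -0.90 and -0.97 in NIC-Prmt6. Erbb2 read 9343 and 15110.4 in NIC and 8242 and 8372 in NIC-Prmt6, between NIC-Prmt1 and NIC-Carm1 except for NIC-Prmt1 replicate 2 (11187), and Areg read 4566 and 4374 in NIC and 3796 and 3945 in NIC-Prmt6, above every NIC-Carm1 library and below every NIC-Prmt1 library. These placements were not tested.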
